A study of Ogataea angusta with 8 samples.

Results

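The 67 features described here had a positive mean log ratio at both levels of oxygen supply. The cells were of DL-1-L, a strain of the yeast Hansenula polymorpha (organism field: Ogataea angusta). A positive value likely means more RNA in xylose-grown than in glucose-grown cells, with limits given below. The features were chosen from the deposited log ratios. A member needed a value on all 8 arrays, a mean of at least 0.7 over the 4 microaerobic arrays, a mean of at least 0.7 over the 4 aerobic arrays, and a difference under 0.6 between these means. Of the 5837 features with an identifier, 5355 had all 8 values, and 67 of these met the rule (1.25%). Every ratio that chose the members is therefore given below as a description, with no test of xylose against glucose.

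Each two-colour array held RNA of xylose-grown and of glucose-grown cells of 1 oxygen condition, labelled with the dyes Cy5 and Cy3. Microaerobic cultures were grown in 250 ml flasks with 100 ml of medium at 100 rpm, and aerobic cultures in 500 ml flasks with 50 ml at 180 rpm. Both kinds were started at an optical density of 0.3 and kept at 37 °C, so oxygen supply, flask, volume and shaking changed together and cannot be told apart. Each condition had 2 arrays with Cy5-labelled xylose RNA (cy5-1 and cy5-2) and 2 with Cy3-labelled xylose RNA (cy3-1 and cy3-2). The labels do not say whether these arrays came from separate cultures or shared RNA extracts, so p-values measure the spread between arrays, which may be technical. No array set aerobic against microaerobic RNA.

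Xylose is a pentose sugar of plant cell walls. Yeasts that use it reduce it to xylitol, oxidise xylitol to xylulose, phosphorylate xylulose and pass it to the pentose phosphate pathway. The enzymes of the first and second step, xylose reductase and xylitol dehydrogenase, differ in the cofactors they prefer, and oxygen supply affects how well a yeast can balance these cofactors. H. polymorpha also tolerates heat and grows on methanol, which it oxidises in peroxisomes.

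None of these roles can be given to a member. The identifiers belong to the array design, none of the 5837 matched any of the 5442 genes of the table used for names (assembly ASM1920747v1), and the file pairs them with no gene. For this reason only the 2 members with the highest mean over all arrays are given by identifier, and others by their rank from 1 to 67 on that mean. The sources used here do not say which RNA is the numerator. All samples are titled by their xylose RNA and list it as channel 1, which makes a positive value likely to mean more transcript on xylose. The ratios of any pair of arrays correlated above 0 (r from 0.33 to 0.88 over the 5355 features), in spite of the dye swap. If all arrays gave Cy5 over Cy3 instead, with no array turned, the mean over the swap would not measure the sugars. The log base is not stated either, and folds take it to be 2.

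Across the members, the mean ratio ran from 0.71 to 2.71 in microaerobic cells, with a median of 1.10, and from 0.725 to 2.94 in aerobic cells, with a median of 1.22. The medians correspond to 2.15-fold and 2.33-fold if the scale is log2. Over all 5355 features the median of the means was -0.02 in both conditions. In microaerobic cells 27 members had a mean from 0.7 to under 1, 30 from 1 to under 1.5, 6 from 1.5 to under 2 and 4 of 2 or more. The aerobic counts were 19, 32, 10 and 6 in the same order. Both means were at least 1 for 33 members and under 1 for 12, while 7 reached 1 in microaerobic cells only and 15 in aerobic cells only. The members made up 44.4% of the 151 features with a mean of at least 0.7 in microaerobic cells and 58.3% of the 115 in aerobic cells. In the plot of the means by condition they form the band along the diagonal above 0.7.

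**Figure D1:**
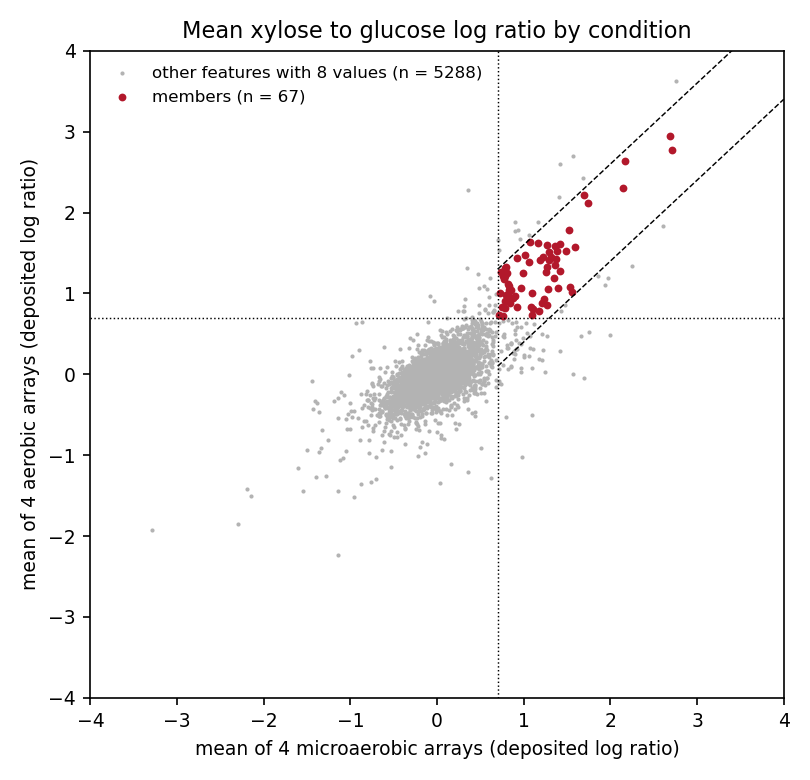
Mean deposited log ratio of the 4 microaerobic arrays (x axis) and of the 4 aerobic arrays (y axis) for the 5355 features with all 8 values; red points are the 67 members. Dotted lines mark the threshold of 0.7 and dashed lines the bound of 0.6 on the difference, so the red points fill the region the rule defines, with microaerobic means of 0.71 to 2.71.

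The highest mean over all arrays belonged to KH-0088. Its microaerobic values were 2.98 (cy5-1), 2.09 (cy5-2), 2.81 (cy3-1) and 2.87 (cy3-2), and its aerobic values 3.32, 2.31, 3.18 and 2.96 in that order. The lowest value of each condition lay on array cy5-2, the other 3 values lay close together, and the conditions overlapped. Its means were 2.69 ± 0.40 (microaerobic) and 2.94 ± 0.45 (aerobic; SD over 4 arrays), or 6.44-fold and 7.69-fold if the scale is log2.

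The other member named is KH-0859. Its microaerobic values were 2.30, 2.08, 2.95 and 3.51 in the order above, and its aerobic values 2.66, 2.37, 3.19 and 2.85. In both conditions the Cy3 arrays held the 2 higher values. Its means were 2.71 ± 0.65 (microaerobic) and 2.77 ± 0.34 (aerobic; SD over 4 arrays), or 6.54-fold and 6.81-fold. The order of KH-0088 and KH-0859 thus differed between conditions, by less than the SD of either. Neither gene product is known from the tables used here.

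The members ranked 3 and 4 also had means of 2 or more in both conditions. The member ranked 3 had microaerobic values of 2.07, 1.35, 2.56 and 2.67 and aerobic values of 2.40, 2.35, 2.97 and 2.83. The member ranked 4 had microaerobic values of 2.02, 1.61, 2.23 and 2.72 and aerobic values of 1.41, 1.67, 3.07 and 3.08. For both, the 4 Cy3 values lay above the 4 Cy5 values within each condition. The member ranked 5 had 1.61, 1.18, 1.93 and 2.07 in microaerobic cells and 1.67, 1.87, 2.99 and 2.36 in aerobic cells. The member ranked 6 had 1.59, 1.19, 1.81 and 2.39, and then 1.65, 1.35, 2.78 and 2.67. These members had aerobic means above 2 (2.22 ± 0.59 and 2.11 ± 0.72) and microaerobic means below it (1.70 ± 0.40 and 1.75 ± 0.50, SD, n = 4 each), with values that overlapped between conditions. Of the 10 members with the highest microaerobic mean, 7 were also among the 10 with the highest aerobic mean. The rule bounds the difference between these means, so this overlap is partly fixed and nothing is read from it.

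The members ranked 7 to 10 had means between 1.42 and 1.79. The member ranked 7 had microaerobic values of 1.28, 0.86, 1.89 and 2.05 and aerobic values of 1.52, 1.15, 2.29 and 2.18. The member ranked 8 had 1.40, 1.02, 1.71 and 2.25, and then 1.62, 1.5, 1.48 and 1.70. Its aerobic values were the most even of the 10 members there, with an SD of 0.10, against 0.52 in microaerobic cells. The member ranked 9 had 1.08, 1.27, 1.64 and 1.68 in microaerobic and 1.19, 1.25, 2.08 and 1.90 in aerobic cells, with both Cy3 values above both Cy5 values each time. The member ranked 10 had 0.57, 0.54, 2.33 and 2.50 in microaerobic cells, a gap between the dyes wider than that of any other member there, and 1.09, 1.19, 1.8 and 2.01 in aerobic cells.

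**Figure D2:**
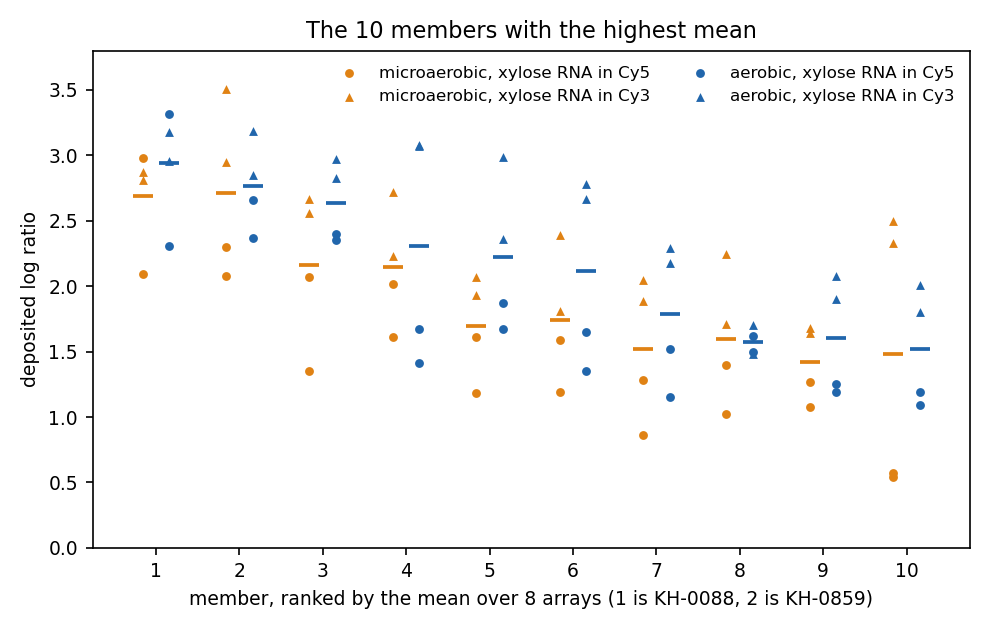
Deposited log ratio (y axis) of the 10 members with the highest mean over 8 arrays (x axis, by rank). Points are single arrays, circles with the xylose RNA in Cy5 and triangles in Cy3, and bars are the means of the 4 arrays of a condition; triangles lie mostly above circles, and the 2 highest members reach 3.51 and 3.32.

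At the lower end, the lower of the 2 condition means was 0.71, 0.725 and 0.725 for the 3 members nearest the threshold. It was 0.6775, 0.675 and 0.67 for the 3 features nearest below it, which are not members. The member ranked 67 had microaerobic values of 0.91, 0.58, 0.25 and 1.10 and aerobic values of 0.79, 0.67, 0.60 and 0.85. The nearest feature outside had 0.24, 0.19, 1.16 and 1.12, and then 0.89, 0.69, 1.28 and 1.09. The microaerobic means that part these features, 0.71 and 0.6775, differ by less than the spread of either feature's arrays. On the other bound, the largest difference among members was 0.565, and the nearest feature beyond it had a difference of -0.6175, the microaerobic mean being the higher one. Both means were at least 0.7 for 87 features, and the 20 that the bound left out split into 13 with the higher aerobic mean and 7 with the higher microaerobic mean. Another 3 features met the rule on 5 to 7 values but lacked the rest, with means of 0.84 to 1.175 in microaerobic and 0.857 to 1.00 in aerobic cells.

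Single values were more varied than the means. Of the 536 values of the members, 2 were at or below 0, 104 were below 0.7 and 342 were at least 1. The values ran from -0.06 to 3.51. Both values at or below 0 lay on a cy5-2 array, at -0.01 for the member ranked 19 in microaerobic cells and at -0.06 for the member ranked 65 in aerobic cells. The other 65 members were positive on all 8 arrays. Values reached 0.7 on all 8 arrays for 23 members, and 1 on all 8 arrays for 10, those ranked 1 to 6, 8, 9, 15 and 25.

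**Figure D3:**
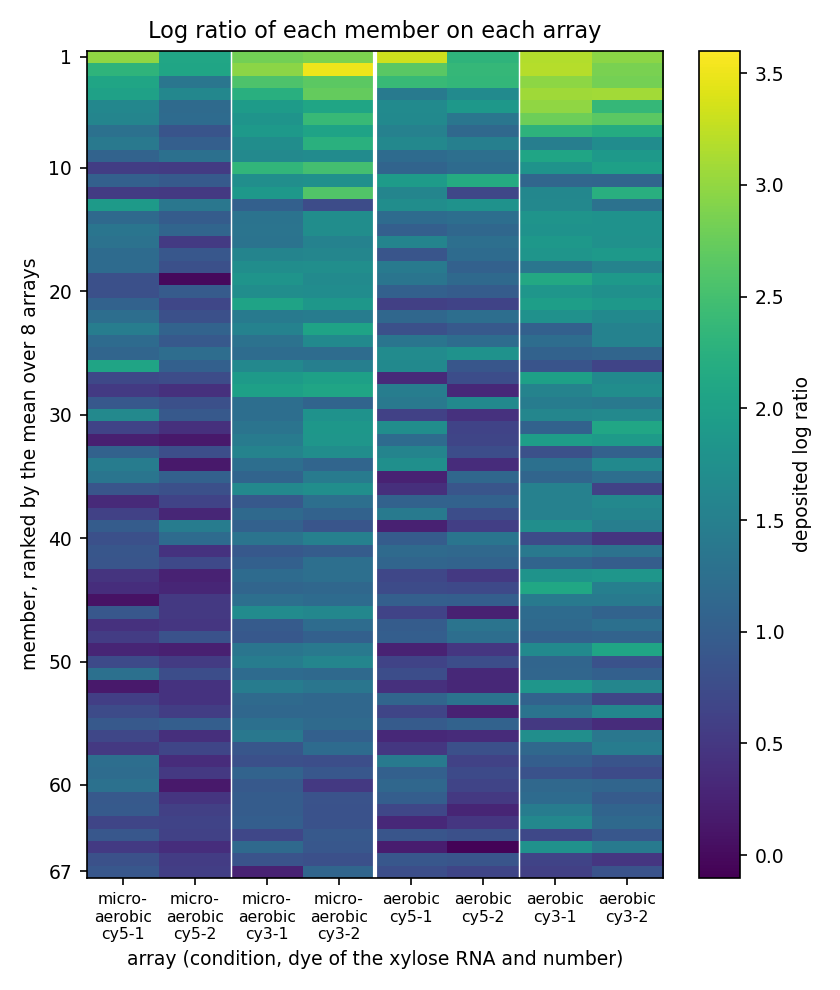
Deposited log ratio (colour) of the 67 members (rows, ranked by the mean over 8 arrays) on each array (columns, by condition and by dye of the xylose RNA). Columns with the xylose RNA in Cy5 are darker than those in Cy3 within each condition, and 2 of the 536 cells are at or below 0.

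The same ratios can be read on an array that the rule did not use. With each array left out in turn, the rule on the other 7 chose 56 to 79 features, of which 52 to 64 were members of the full list. On the array left out, the features so chosen were positive for 68 of 71 (microaerobic cy5-1), 70 of 78 (cy5-2), 59 of 59 (cy3-1) and 56 of 56 (cy3-2). The aerobic counts were 62 of 63, 63 of 65, 65 of 65 and 67 of 67 in the same order. A ratio above 0 was held by 46.7%, 49.2%, 46.3% and 45.9% of all features on the microaerobic arrays, and by 46.4%, 49.4%, 45% and 45.2% on the aerobic arrays. Arrays of 1 condition may share RNA extracts, so the array left out need not be an independent culture.

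The size on the array left out differed by dye, but part of this gap is built in. Without a Cy5 array, the mean of that condition holds more Cy3 than Cy5 arrays, and the reverse without a Cy3 array. The choice then favours features high in the other dye, and the features chosen differ between the arrays left out. The median on the array left out was 0.90 and 0.61 on the microaerobic Cy5 arrays cy5-1 and cy5-2. It was 1.32 and 1.605 on the Cy3 arrays cy3-1 and cy3-2. In aerobic cells it was 1.02 and 0.80 on Cy5 arrays and 1.53 and 1.57 on Cy3 arrays. A value of at least 0.7 was found for 46 of 71 and 34 of 78 features on the microaerobic Cy5 arrays, against 56 of 59 and 55 of 56 on the Cy3 arrays. In aerobic cells these counts were 43 of 63 and 39 of 65, against 62 of 65 and 60 of 67. Over all features, such a value was held by 3.55%, 2.8%, 3.93% and 4.3% on the microaerobic arrays cy5-1 to cy3-2, and by 2.85%, 2.07%, 3.56% and 3.24% on the aerobic arrays.

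Whether the members' response depends on oxygen is partly fixed by the rule, which bounds the difference between conditions. The aerobic mean was the higher one for 49 members and the microaerobic mean for 18. The same split over all features is not given here, so no lean of the members is read from it. The difference, aerobic minus microaerobic, had a median of 0.13 and a range from -0.54 to 0.565. The difference was under 0.2 in size for 29 members and at least 0.4 for 16. In 1 limma fit over all 8 arrays, 0 of 67 members passed the test of the difference (adjusted p under 0.05), where 1.02% of 5674 features did, and nothing is read from this count. At an unadjusted p under 0.05 it was 9 members, against 12.1% of all features. The members' median standard error of the difference was 0.22, so differences as large as the bound of 0.6 would stand at less than 3 standard errors in a typical member. With dye and number as a fixed replicate block 1 member was called, the member ranked 37 (limma adjusted p = 0.045), where 1.78% of all features were, a share near that of the members.

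Nothing is read from this call either. The values of that member were 0.34, 0.65, 0.93 and 1.25 in microaerobic and 1.07, 1.07, 1.52 and 1.63 in aerobic cells. Its conditions overlapped, but the aerobic value was the higher one in each of the 4 pairs that share dye and number. There were 2 members with 4 aerobic values above the 4 microaerobic values, and none with the reverse. Over the 5355 features, 6.8% had conditions that did not overlap. The bound of the rule limits the count of members, so nothing is read from it. The member ranked 29 had 0.92, 0.81, 1.23 and 1.09 in microaerobic and 1.39, 1.66, 1.45 and 1.39 in aerobic cells. The member ranked 41 had 0.89, 0.44, 0.92 and 0.97, and then 1.18, 1.15, 1.39 and 1.29. Across the 67 members the condition means had a Spearman's rho of 0.60, a value that the bounds of the rule affect.

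Some members of lower rank had a wide gap between the dyes in both conditions. The member ranked 49 had 0.28, 0.23, 1.34 and 1.40 in microaerobic and 0.25, 0.48, 1.66 and 2.07 in aerobic cells. The member ranked 65 had 0.53, 0.39, 1.16 and 0.90, and then 0.19, -0.06, 1.77 and 1.41.

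The difference between the dye orientations does not enter the rule directly, since each mean holds both orientations equally. It is not free of the choice, however. The ratios of all features spread wider on Cy3 than on Cy5 arrays (values below), so a high mean can favour features high on Cy3 arrays. Many members had a larger ratio where the xylose RNA carried Cy3. The median over members was 0.94 and 0.69 on the microaerobic Cy5 arrays cy5-1 and cy5-2, against 1.31 and 1.46 on the Cy3 arrays cy3-1 and cy3-2. In aerobic cells it was 1.07 and 0.94 on Cy5 arrays, against 1.52 and 1.54 on Cy3 arrays. The medians of the Cy3 arrays thus lay above those of all Cy5 arrays, in both conditions. The array medians of all features were -0.03 to 0.

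**Figure D4:**
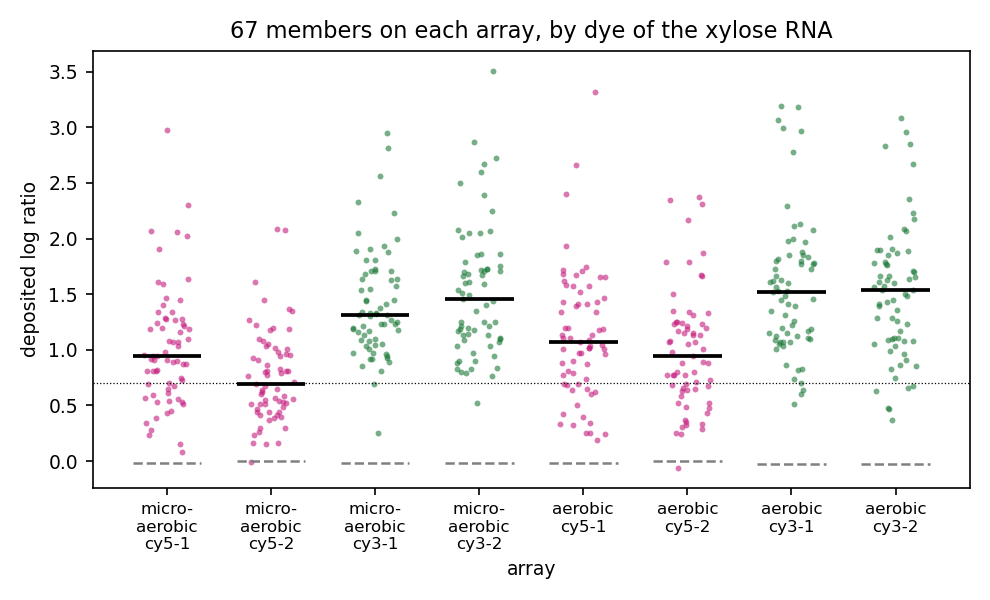
Deposited log ratio (y axis) of the 67 members on each of the 8 arrays (x axis), purple with the xylose RNA in Cy5 and green in Cy3. Solid bars are medians over the members, 0.69 to 1.07 on Cy5 and 1.31 to 1.54 on Cy3 arrays; dashed bars are medians over the 5355 features, and the dotted line is the threshold of 0.7.

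Fitted over all 8 arrays with a mean per condition and 1 dye term, 32 of 67 members (47.8%) had a higher ratio with the xylose RNA in Cy3 (limma, adjusted p under 0.05 over all features tested) and none had a higher ratio with it in Cy5. Among all 5660 features with an estimate, 2.37% were called with Cy3 higher and 1.38% with Cy5 higher. The members were 23.9% of the features called with Cy3 higher. Their difference, Cy3 minus Cy5, had a median of 0.52 and ran from -0.52 to 1.31, with a median standard error of 0.15. It was positive for 58 of 67 members and for 48.0% of the 5355 features.

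The pattern stood in both conditions. The median difference was 0.535 in microaerobic and 0.505 in aerobic cells, against 0 and -0.005 over all 5355 features. Both Cy3 values lay above both Cy5 values for 49 of 67 members in microaerobic cells, where 25.2% of all features had this, and for 40 of 67 in aerobic cells, where 19% had it. The reverse order was found for 1 member, against 25.5%, and for 8 members, against 19.7%. All 4 Cy3 values lay above all 4 Cy5 values for 30 members, against 4.78% of all features. In tests within a condition, 24 members were called with Cy3 higher in microaerobic cells (2.99% of all features) and 24 in aerobic cells (1.81%). With Cy5 higher it was 1 and 2 members. In either direction, 5.72% of all features were called in microaerobic and 3.58% in aerobic cells. Across members the differences of the 2 conditions had a Pearson's r of 0.42 and a Spearman's rho of 0.46 (n = 67), against a Pearson's r of 0.27 over the 5355 features. The points share the dyes, and members with large ratios can have large differences.

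Each array's spread over all features moved with the dye as well. The SD of the ratios over all features was 0.386 to 0.425 on Cy3 arrays and 0.337 to 0.383 on Cy5 arrays. After quantile normalization, which gives all arrays 1 distribution, 10 members were called with Cy3 higher, where 1.24% of all features were. With Cy5 higher it was 2 members, and 1.96% of all features were called in either direction. With trend and robust variance in limma, 20 members were called, all with Cy3 higher, where 2.07% of all features were called in that direction. The part of the dye, of the arrays' spread and of the choice by the rule in this pattern was not tested.

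The 32 members called for the dye term included 8 of the 10 with the highest mean. KH-0859 had a mean of 2.35 over the 4 Cy5 arrays and of 3.125 over the 4 Cy3 arrays, a difference of 0.77 ± 0.16 (SE, limma adjusted p = 0.016). The member ranked 10 had the largest difference, with means of 0.85 and 2.16 and a difference of 1.31 ± 0.18 (SE, limma adjusted p = 0.0011). Next came the member ranked 49, at 0.31 and 1.62, a gap of 1.31 ± 0.13 (SE, limma adjusted p = 8.3e-05). For this last member most of the mean that met the threshold came from the Cy3 arrays. Its values are given above, and all 4 Cy5 values were below 0.5.

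The other 35 members were not called for the dye term, with differences from -0.52 to 0.73. Among them was KH-0088, with means of 2.675 and 2.955 and a gap of 0.28 ± 0.21 (SE, limma adjusted p = 0.53). The member ranked 13 had the lowest difference, -0.52 ± 0.15 (SE, limma adjusted p = 0.074). Its values were 1.91, 1.37, 1.03 and 0.76 in microaerobic and 1.71, 1.79, 1.62 and 1.29 in aerobic cells. Besides the member ranked 67, it was the only one of the 67 with the higher Cy5 mean in both conditions. The difference was under 0.2 in size for 13 members. The most even of these in both conditions included the member ranked 64, with 0.90, 0.62, 0.69 and 0.94, and then 0.87, 0.80, 0.70 and 0.91.

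**Figure D5:**
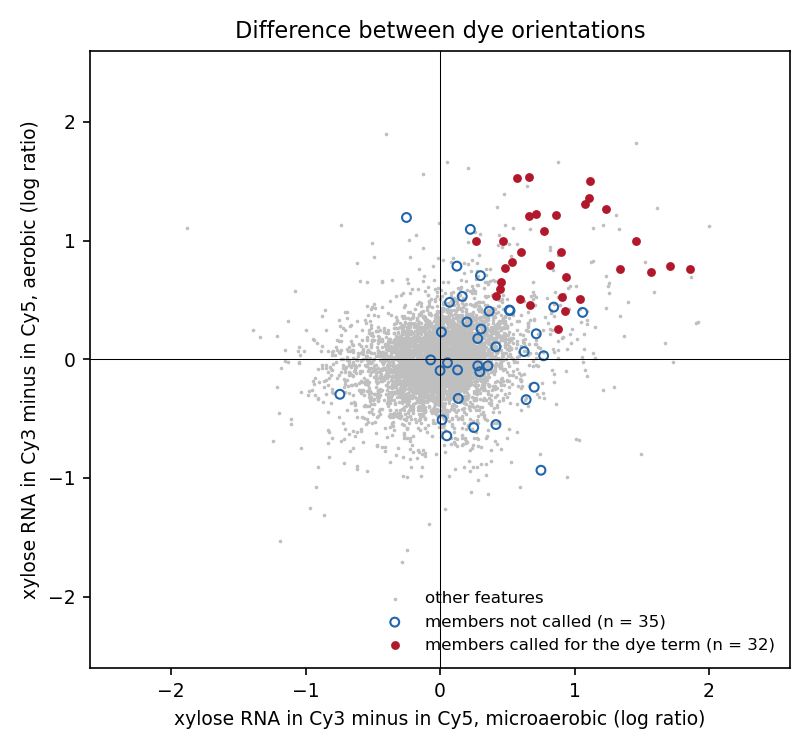
Difference between dye orientations, xylose RNA in Cy3 minus in Cy5, in microaerobic (x axis) and aerobic (y axis) arrays, in units of the deposited log ratio. Red points are the 32 members called for the dye term, blue circles the other 35, and grey points the remaining features; the members lie to the upper right, with medians of 0.535 and 0.505.

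The 2 sets of members also differed in what the Cy5 arrays alone showed, as follows from how they were parted. The called members had median Cy5 means of 0.65 in microaerobic and 1.01 in aerobic cells, and median Cy3 means of 1.615 and 1.815. The others had 0.91 and 1.095 on Cy5 arrays and 1.185 and 1.125 on Cy3 arrays. Both Cy5 means were at least 0.7 for 34 of the 67 members, 11 of the called and 23 of the others, and both Cy3 means for 63. All 4 means by condition and dye reached 0.7 for 31 members and 1 for 16.

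For comparison, the mirrored rule (both means at or below -0.7, difference under 0.6) chose 22 features, with median means of -1.10 in microaerobic and -1.05 in aerobic cells. Of these, 2 were called for the dye term with Cy3 higher and 1 with Cy5 higher, and the median difference was 0.02. Their medians by array were -1.255 and -1.195 on the microaerobic Cy5 arrays, below -1.01 and -1.11 on the Cy3 arrays, while the aerobic ones overlapped (-1.19 and -0.94 on Cy5, -1.135 and -1.09 on Cy3). Of the 20 features with both means of at least 0.7 that the bound of 0.6 left out, 12 were called with Cy3 higher and none with Cy5 higher, with a median difference of 0.91. That the members differ from either set in this was not tested.

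The difference between dye orientations itself differed between the conditions for 3 of 67 members (limma, adjusted p under 0.05), where 1.55% of 5628 features were called. With dye and number as a random replicate block it was 9 members, where 4.98% of all features were called. The member ranked 11 had 1.03, 0.95, 1.73 and 1.75 in microaerobic and 1.93, 2.17, 1.12 and 1.11 in aerobic cells. Its Cy3 values were the higher ones in microaerobic and the lower ones in aerobic cells, a change of -1.685 ± 0.22 (SE, limma adjusted p = 0.0018). Its mean over both dyes was 1.37 ± 0.43 and 1.58 ± 0.55 (SD, n = 4 each), values that do not show this change.

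The member ranked 39 had 0.98, 1.45, 1.05 and 0.88 in microaerobic and 0.24, 0.58, 1.73 and 1.48 in aerobic cells, a change of 1.445 ± 0.27 (SE, limma adjusted p = 0.016). Here the dyes parted in aerobic cells and overlapped in microaerobic cells. For the member ranked 10, whose values are given above, the change was -1.095 ± 0.22 (SE, limma adjusted p = 0.024), the wider gap being the microaerobic one. The count of 3 was 1 without microaerobic array cy5-2, cy3-1 or cy3-2 or without aerobic array cy3-1 or cy3-2. There 0.34% to 1.01% of all features were called. The count was 6 without aerobic array cy5-1 or cy5-2, where 3.19% and 2.28% of all features were called. The share over all features thus moved with the count of members.

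The number in the array titles does not enter the rule directly either. The arrays numbered 2 minus those numbered 1 had a median of -0.0625 over members, with a range from -0.595 to 0.265, and 42 of 67 members had the lower mean on the arrays numbered 2, against 47.5% of all features. No member passed the test of this term (limma adjusted p of at least 0.74), and no feature of 5673 did, a share of 0%. At an unadjusted p under 0.05 it was 8 members, against 6.42% of all features.

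Array cy5-2 of the microaerobic condition held the lowest of the 8 values for 33 of 67 members. In microaerobic cells 54 members had a lower value on cy5-2 than on cy5-1, where 46.3% of all features did. The median of cy5-2 minus cy5-1 was -0.25 over all 67 members and 0.02 over all features. In aerobic cells 38 members had a lower value on cy5-2, where 44.2% of all features did. There the median of this difference was -0.03 over all 67 members and 0.03 over all features. The aerobic array cy5-2 held the lowest of the 8 values for 8 members, and the aerobic array cy5-1 for 12. Shares of all features for these lowest values are not given here, so nothing is read from the counts. The SD over all features was 0.365 on microaerobic cy5-2, against 0.383 to 0.425 on the other microaerobic arrays. It was 0.337 on aerobic cy5-2 and 0.360 on aerobic cy5-1. The part of this spread was not tested. The member ranked 34 showed a low value on cy5-2 most clearly, with 1.45, 0.16, 1.23 and 1.11 in microaerobic and 1.74, 0.37, 1.26 and 1.66 in aerobic cells. KH-0088 had the same array lowest in both conditions. Deviations of members from their condition means correlated at r = 0.39, 0.54, 0.37 and 0.49 between arrays that share both dye and number (cy5-1, cy5-2, cy3-1 and cy3-2), and at -0.03 to 0.31 between those that share the dye alone. These points share the features and the dyes.

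Members varied more between arrays than features in general. Their median SD over the 4 arrays was 0.40 in microaerobic and 0.41 in aerobic cells, against 0.17 and 0.18 over all 5355 features. Between the 2 arrays of 1 dye the gap was smaller. The median absolute difference of the members was 0.29 (Cy5) and 0.14 (Cy3) in microaerobic cells, against 0.18 and 0.13 over all features, and 0.24 and 0.18 in aerobic cells, against 0.21 and 0.16. The lowest SD of a member was 0.06 in microaerobic cells, for the member ranked 25 (1.10, 1.22, 1.21 and 1.21), whose aerobic values parted by dye instead (1.68, 1.79, 1.07 and 1.11).

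The members were spread over the identifiers of the design, with 20, 17, 20 and 10 in the 4 equal stretches of its numbers. No 2 members had consecutive numbers. Another member lay within 5 numbers for 7 of 67 members (10.4%), and a member lay as near to 10.3% of all 5355 features. Whether these numbers follow the genome or the slide is not stated in the sources used here.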

How the data were processed

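All ratios came from the table deposited by the authors, with 1 log2 ratio of the channels per feature and array for 8 arrays. Besides it, only the gene table of assembly ASM1920747v1 was used, in the search for names. Base 2 is assumed. How the arrays were scanned, corrected for background and normalized is not given in the sources used here. Each array held 5493 to 5677 values with medians from -0.03 to 0, and the number of arrays limits the precision. No ratio was rescaled or turned.

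The members, lists and tests were chosen with earlier results of these data known. Models were fitted by lmFit and eBayes of limma 3.58.1 (R 4.3.3) to the 5674 features that had 2 or more values per condition, with p-values adjusted by Benjamini-Hochberg over all features tested and a threshold of 0.05. The fits held a mean per condition, then also a dye term, a dye term per condition, or a dye and a number term. The dye tests lack 14 and 46 features with no estimate of the term.

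Scripts were tested on simulated data. Deviations from the condition means were correlated between arrays that share dye and number (r = 0.24, 0.21, 0.34 and 0.29 over 5355 features), so they were treated as paired in the alternatives with a replicate block. At most 2 identifiers are named, by the highest mean over all arrays, and other members by a fixed place or chosen after their values were seen (those ranked 11, 19, 25, 29, 37, 39, 41, 49, 64 and 65). Alternatives covered the rule, scaling, variance model, blocks and each array left out.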

Additional observations from a re-analysis of the deposited data

Results flagged for a closer look

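Among 34 groups of 4 values (the members described by a fixed place in each condition, and the medians over members), 2 held a value farther from the others than Dixon's bound for 4 values allows. Over all members and conditions, 4 of 134 groups did. Chance alone gives about 1 such group in 20. The member ranked 35, which has the highest difference between arrays numbered 2 and 1, had an aerobic value of 0.25 on array cy5-1, where its other aerobic values were 1.13, 1.11 and 1.23. The member ranked 60, among the 3 nearest inside the threshold, had an aerobic value of 0.66 on array cy5-2, against 1.13, 1.15 and 1.10.

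For 3 members the difference between the dye orientations was not the same in both conditions, by the limma test of the interaction. The change, aerobic minus microaerobic, was -1.095 for the member ranked 10, -1.685 for the member ranked 11 and 1.445 for the member ranked 39. By the same test 1.55% of 5628 features were called. The count of members called also depended on which array was left out, as given above.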

How the results depend on the processing

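The rule chose 51 to 85 features under other thresholds, bounds, averages, a laxer demand on missing values and both scalings. It chose 31 where each mean by condition and dye had to reach 0.7, as follows from adding a condition, and 56 to 79 with 1 array left out. The median over members kept within the spread of the array medians under both scalings; with 1 array left out, or read on an array the rule did not use, it ran from 0.61 to 1.605 in microaerobic and from 0.80 to 1.57 in aerobic cells. The members called for the dye term in either direction numbered 20 with trend and robust variance (3.46% of all features). They numbered 12 after quantile normalization (1.96%), and the cause was not tested. With the random replicate block it was 28 members (2.70%), and with 1 array left out 23 to 30 (1.75% to 4.33%). For the dye term by condition the count was 9 with the random replicate block, where 4.98% of all features were called. It was 1 to 6 with 1 array left out, where 0.34% to 3.19% were. For the difference between conditions it was 1 with a dye term (3.01% of all features) and 1 with the fixed replicate block (1.78%). It was 0 under the other alternatives, where 0.53% to 2.31% of all features were called. The block changed no other count by over 1.5 times. The number term gave 0 calls throughout. The test within 1 condition was added after seeing the data. With 8 arrays and no intensities, faint or saturated spots could not be marked.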
